A study of Homo sapiens with 15 samples.

Results

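Open chromatin around the 2 genes joined by the Philadelphia translocation was examined in K562 cells, a human line of erythroleukemia cells that carries the BCR-ABL1 fusion. Peaks of 15 lists were merged wherever they overlapped by at least 1 bp, which gave 120992 regions on the autosomes and X. Of these, 1354 lay in a window of chromosome 22 that runs up to and just past BCR (hg19 chr22:16900000-23700000) or in a window of chromosome 9 around ABL1 (hg19 chr9:133500000-134200000). A point in each gene, chr22:23630000 in BCR and chr9:133600000 in ABL1, split the windows into sides. The chromosome 22 window held 1164 regions up to the BCR point and 11 past it. The chromosome 9 window held 164 regions past the ABL1 point and 15 up to it. "Past" here means toward the end of the long arm. The windows were chosen by position, not by any measured value, but with earlier results of these data known.

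All groups were K562 cells transduced with lentivirus in triplicate and selected with puromycin. The transduced protein was dCas9-KRAB, a nuclease-dead Cas9 fused to a repressor domain, or dCas9 alone, with a guide RNA (gRNA) for HS2, an enhancer of the beta-globin genes. The groups, with 3 libraries each, were dCas9-KRAB with the gRNA Cr4, dCas9-KRAB with Cr10, dCas9 with Cr4, dCas9 with Cr10, and dCas9-KRAB without a gRNA. The no-gRNA status of the last group follows its titles and the design text, while its deposited gRNA target label names HS2 as in the other groups. There were no untransduced cells among them, so every value describes cells that carry a vector. Nothing in the labels says more of the replicates than that transduction was in triplicate, so p-values measure the spread between these libraries, which may be technical. The lists held 53147 to 94777 peaks, and the total number of fragments per library is unknown. Peaks stood at HS2 and at the promoters of GATA1, TAL1, HBG1 and HBG2, genes of the erythroid lineage, in 15 of 15 libraries. The T-cell marker CD3E had a promoter peak in 1 library, and the liver marker ALB in 0.

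In the translocation, the part of BCR on the centromere side of its break is joined to the part of ABL1 on the telomere side of its break, and the product is a constantly active tyrosine kinase. K562 is known for carrying the fused segments in many copies, which makes the parts of chromosomes 22 and 9 on the 2 inner sides of the breaks a stretch of raised DNA dosage. A peak caller judges a peak against the number of fragments around it, so extra copies of DNA would raise the summit and its surroundings alike. DNA copy number was not measured in these files, and the name "amplicon" is therefore background here and not a result.

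The promoters that the results turn on are those of BCR, of ABL1 at its inner first exon (exon 1a), of CRKL, which encodes an adaptor that BCR-ABL1 phosphorylates, and of FAM78A, the last high region before the distal drop on chromosome 9. They are printed from RefSeq (GRCh38.p14, each 300 bases on the strand of the gene, 5′ to 3′) as examples of promoters with a high background. No promoter with a low background is printed beside them, and whether sequence goes with background was not tested. The BCR sequence is chr22:23180259-23180558 (plus strand), that of ABL1 chr9:130835004-130835303 (plus strand), that of CRKL chr22:20917157-20917456 (plus strand) and that of FAM78A chr9:131277986-131278285 (minus strand), all on GRCh38.p14. Capitals mark the GC box, the letters GGGCGG or, on the other strand, CCGCCC.
BCR: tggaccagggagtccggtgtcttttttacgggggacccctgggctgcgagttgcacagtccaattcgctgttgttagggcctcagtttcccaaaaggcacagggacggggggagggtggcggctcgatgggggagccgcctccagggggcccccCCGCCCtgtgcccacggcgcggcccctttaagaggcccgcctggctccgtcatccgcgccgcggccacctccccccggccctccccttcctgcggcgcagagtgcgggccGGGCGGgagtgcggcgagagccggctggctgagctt
ABL1: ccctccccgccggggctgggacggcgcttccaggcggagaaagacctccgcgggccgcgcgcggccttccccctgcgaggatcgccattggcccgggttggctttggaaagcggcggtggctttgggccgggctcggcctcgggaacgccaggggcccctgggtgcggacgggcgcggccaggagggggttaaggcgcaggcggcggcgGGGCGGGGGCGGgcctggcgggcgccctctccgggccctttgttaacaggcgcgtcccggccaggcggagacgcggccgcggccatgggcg
CRKL: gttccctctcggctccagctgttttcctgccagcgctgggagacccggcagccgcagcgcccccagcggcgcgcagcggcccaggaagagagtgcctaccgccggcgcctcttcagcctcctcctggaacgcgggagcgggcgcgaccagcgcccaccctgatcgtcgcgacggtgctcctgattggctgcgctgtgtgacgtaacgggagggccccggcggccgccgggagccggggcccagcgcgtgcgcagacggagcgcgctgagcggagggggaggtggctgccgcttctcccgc
FAM78A: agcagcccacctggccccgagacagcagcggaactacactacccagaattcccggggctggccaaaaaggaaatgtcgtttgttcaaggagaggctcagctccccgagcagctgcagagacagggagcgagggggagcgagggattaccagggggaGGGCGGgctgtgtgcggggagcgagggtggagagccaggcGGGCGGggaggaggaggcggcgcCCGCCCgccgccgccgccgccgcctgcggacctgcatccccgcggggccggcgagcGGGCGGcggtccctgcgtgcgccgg
The BCR sequence held 2 GC boxes, that of ABL1 2, that of CRKL 0 and that of FAM78A 4. At least 1 GC box was found in 45.0% of the 35116 promoter sequences of the table. The 4 sequences had a GC content of 71.7% (BCR), 78.3% (ABL1), 74.7% (CRKL) and 73.0% (FAM78A), against a median of 58.7% over all promoters. They held 27, 42, 39 and 32 CpG in the same order, against a median of 14. The motif is a description of these letters only, and gene positions on the 2 builds were not converted into each other. The peaks below are given on hg19, the build of the files.

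The results rest on 3 measures per peak. The fold is the authors' own value, the height of the summit over the local background. From fold and p-value together follow the implied summit pileup, a whole number of fragments at the summit, and the implied local background, the number of fragments expected there from the surroundings. Both were put on a log2 scale and centred on each library's median over 38888 regions, those found in all 15 lists, so 0 is a typical shared region and 1 is double. These 2 values are called relative pileup and relative background.

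The local background was high on the inner side of each point and lower on the other side. Only past the BCR point was the median of that other side below 0. It rests on 3 regions there, and their mean ran from −0.14 to 0.25 over the libraries. Up to the ABL1 point the median of the other side lay above the upper quartile of the rest of the genome (0.51). Up to the BCR point 331 regions had a peak in every list, and their median relative background averaged 1.55 ± 0.06 (SD, n = 15 libraries), against −0.75 ± 0.10 for the 3 such regions past the point. The difference was 2.30 ± 0.06 in log2, a 4.94-fold difference, and it was above 0 in 15 of 15 libraries. Over the 35 regions past the ABL1 point the value was 2.06 ± 0.06, against 0.60 ± 0.12 for the 5 regions up to it. That difference was 1.47 ± 0.15, or 2.76-fold, again above 0 in 15 of 15 libraries. With the points moved 20 kb toward the centromere the difference on chromosome 22 was 1.009, and as a mean over regions 1.37, since the side past the point holds few regions. These are summaries over regions and carry no test. They rest on the 374 of 1354 members with a peak in all 15 lists, and all peaks of each library were an alternative.

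The comparison with adjoining chromosome did not depend on the few regions across the points. The 6.8 Mb of chromosome 22 beyond the window averaged −0.39 ± 0.06 over 147 regions, and the side up to the BCR point exceeded it by 1.94 ± 0.07, or 3.85-fold. The stretches on either side of the chromosome 9 window averaged 0.03 ± 0.09 over 43 regions, and the side past the ABL1 point exceeded them by 2.03 ± 0.10, or 4.08-fold. Against the other 38324 shared regions of the autosomes and X the excess was 1.56 ± 0.06 on chromosome 22 and 2.07 ± 0.06 on chromosome 9. In fragments, the median local background was 13.6 to 37.9 up to the BCR point over the libraries, 19.96 to 54.7 past the ABL1 point, and 3.34 to 10.2 in the adjoining chromosome 22. A background cannot fall below each library's floor, which held 0.383% of regions up to the BCR point but 10.0% of the adjoining chromosome 22, and this limit can only make the difference on chromosome 22 smaller.

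**Figure D1:**
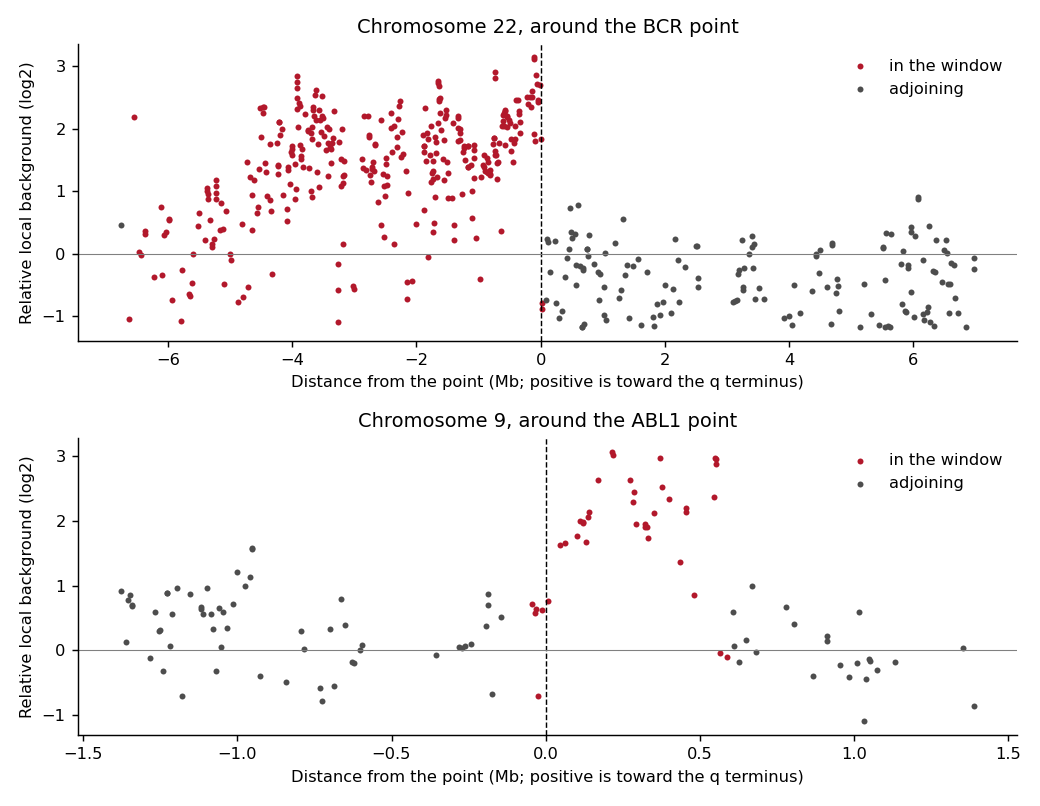
Relative local background (log2) of each region with a peak in all 15 lists, as the mean over 15 libraries, against its distance in Mb from the BCR point (upper panel) and the ABL1 point (lower panel). Red regions lie in the windows and dark grey ones in the adjoining chromosome. Red regions fill the range above 1 in the 4.5 Mb up to the BCR point and in most of the 0.6 Mb past the ABL1 point.

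Most of the shared members on the high sides had a high background. A relative background above 1 was found at 244 of 331 regions up to the BCR point (73.7%) and at 31 of 35 past the ABL1 point (88.6%). It was found at 0 of 147 regions in the adjoining chromosome 22, 0 of 43 in the adjoining chromosome 9 and 8.12% of the rest of the genome. The limit of 1 was set after the values were seen. The highest member was the BCR promoter at 3.14, and the lowest up to the BCR point lay at −1.09.

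Along chromosome 22 the rise began inside the window. In steps of 0.5 Mb, the median relative background was 0.21 ± 0.13, −0.25 ± 0.10, 0.72 ± 0.04 and 0.66 ± 0.11 between 6.5 and 4.5 Mb before the BCR point. It was 1.47 ± 0.11 in the next step and stayed between 1.37 and 2.32 in all 9 steps from there to the point. The highest steps were the last 0.5 Mb before the point (2.32 ± 0.09) and the step from 4.0 to 3.5 Mb before it (2.03 ± 0.10). The first 0.5 Mb past the point had −0.12 ± 0.10, and every later step out to 7.0 Mb was below 0. The chromosome 22 side thus held low steps up to 5.5 Mb before the point, intermediate ones from 5.5 to 4.5 Mb and high ones from 4.5 Mb on, and its median mixes the 3. The intermediate steps lay above the upper quartile of the rest of the genome (0.51).

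Along chromosome 9, in steps of 0.1 Mb, the level rose over several steps past the ABL1 point and fell abruptly further on. The last 0.1 Mb before the point had 0.60 ± 0.12. The 6 steps of 0.1 Mb past it had 1.61, 1.99, 2.55, 1.97, 2.14 and 2.63, and the next one, beyond the window, had 0.14 ± 0.11. The high stretch therefore ended inside the window, between FAM78A and PLPP7. The region at the FAM78A promoter (chr9:134152790-134153769) had a relative background of 2.88 ± 0.10. The next region with a peak in all 15 lists, at the promoter of PLPP7, a relative of lipid phosphatases (chr9:134164911-134165248), had −0.04 ± 0.17. The 2 are 11.1 kb apart, and the difference was 2.92 ± 0.19, or 7.56-fold, in 15 of 15 libraries.

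At BCR the fall was as sharp. The region chr22:23631869-23632911, 2.39 kb past the point, still had 1.83 ± 0.15, with 15.04 to 46.6 fragments of local background. The next shared region, chr22:23644875-23645281, had −0.79 ± 0.11, with 2.34 to 7.96 fragments. The gap between them is 11.96 kb, and the difference was 2.63 ± 0.08, or 6.18-fold, in 15 of 15 libraries. Group means of this difference were 2.58 ± 0.05 (dCas9-KRAB with Cr4), 2.67 ± 0.14 (dCas9-KRAB with Cr10), 2.63 ± 0.07 (dCas9 with Cr4), 2.65 ± 0.08 (dCas9 with Cr10) and 2.61 ± 0.05 (dCas9-KRAB without gRNA). The 5 means differ by less than the spread within the group with the widest spread. By this measure the change of level lay past chr22:23630000, and 1 of the 3 shared regions counted as past the point had a high background. The local background is taken from the surroundings, which may reach back across the point, so the place of the change is not exact. Both pairs of regions were picked after the values were seen, for the size of the change, and carry no test.

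Regions with a peak in only 1 to 14 lists were counted within 50 kb of each change. Up to the BCR point, 9 of 9 such regions had a relative background above 1 (2.25 to 2.84), against 2 of 8 past it, where 6 were below 0. Past the ABL1 point, 15 of 15 were above 1 (median 1.37), against 0 of 3 up to it (median 0.61). Before the distal drop on chromosome 9, 9 of 10 were above 1, against 0 of 6 after it, where all 6 were below 0.

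No abrupt change stood between the shared regions nearest the ABL1 point on either side. The ABL1 exon 1b promoter, 11.6 kb before it, had 0.62 ± 0.12. The first shared region past it (chr9:133607196-133608831) had 0.76 ± 0.16. The following regions had 1.20 ± 0.08 in the 3 libraries with a peak (chr9:133609289-133609531) and 1.48 ± 0.08 in the 7 libraries with a peak (chr9:133615551-133616066). The next regions before exon 1b had −1.06 ± 0.20 (chr9:133582547-133583042, 14 libraries) and −0.70 ± 0.16 (chr9:133576430-133576797). Further out, 2 shared regions at no listed promoter had 0.57 ± 0.13 (chr9:133565348-133565919) and 0.72 ± 0.14 (chr9:133556484-133557745), so levels before the point varied. Regions with a peak in few libraries report only those libraries. The local background comes from the surroundings and can be raised by a broad promoter peak. These values therefore cannot settle how abrupt the change is.

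**Figure D2:**
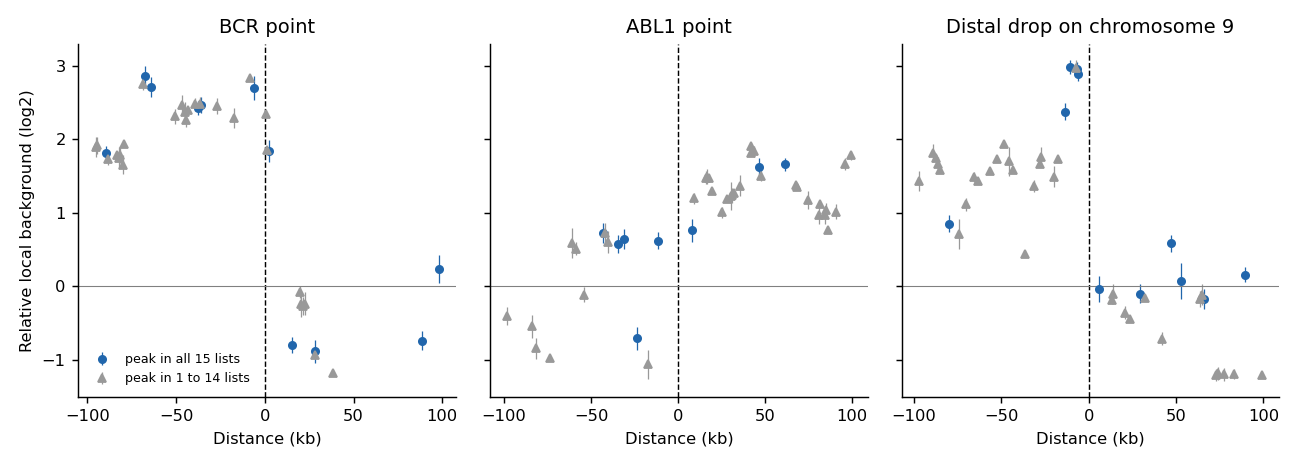
Relative local background (log2; mean and SD over the libraries with a peak) within 100 kb of the BCR point, the ABL1 point and the middle of the distal drop on chromosome 9. Blue circles are regions with a peak in all 15 lists and grey triangles those with a peak in 1 to 14. The level falls across a gap of about 12 kb past the BCR point and across 11.1 kb at the distal drop. Around the ABL1 point it rises from varied levels.

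Summits were higher too, but by less than their surroundings. The median relative pileup was 0.81 ± 0.08 up to the BCR point and 0.89 ± 0.08 past the ABL1 point. It exceeded the adjoining chromosome 22 by 1.00 ± 0.09 and the adjoining chromosome 9 by 0.94 ± 0.14, each in 15 of 15 libraries. Across the BCR point the difference was 0.83 ± 0.18 (15 of 15 libraries; 0.46 with the point moved 20 kb toward the centromere), and across the ABL1 point 0.24 ± 0.19 (13 of 15). The relative background exceeded the relative pileup at 298 of 331 regions up to the BCR point and at 35 of 35 past the ABL1 point, against 42 of 147 and 21 of 43 in the adjoining stretches and 47.0% of the rest of the genome. Both values were solved from the fold and p-value, so this count and the folds below describe the same relation and are not separate results.

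The tallest summits of all libraries lay close together. The highest pileup of a library was between 310 and 375 fragments, although the median pileup of shared regions ranged from 44 to 115. On average 33.0% of regions up to the BCR point and 33.3% of those past the ABL1 point were above 0.5 of their library's highest pileup, against 2.22% and 6.67% in the adjoining stretches and 7.72% in the rest of the genome. Between the libraries with the highest and the lowest value, the median region up to the BCR point differed 2.30-fold in pileup and 2.84-fold in background. In the adjoining chromosome 22 these ratios were 2.94 and 3.02. Whether a ceiling on pileup holds down the summits of the members was not tested.

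**Figure D3:**
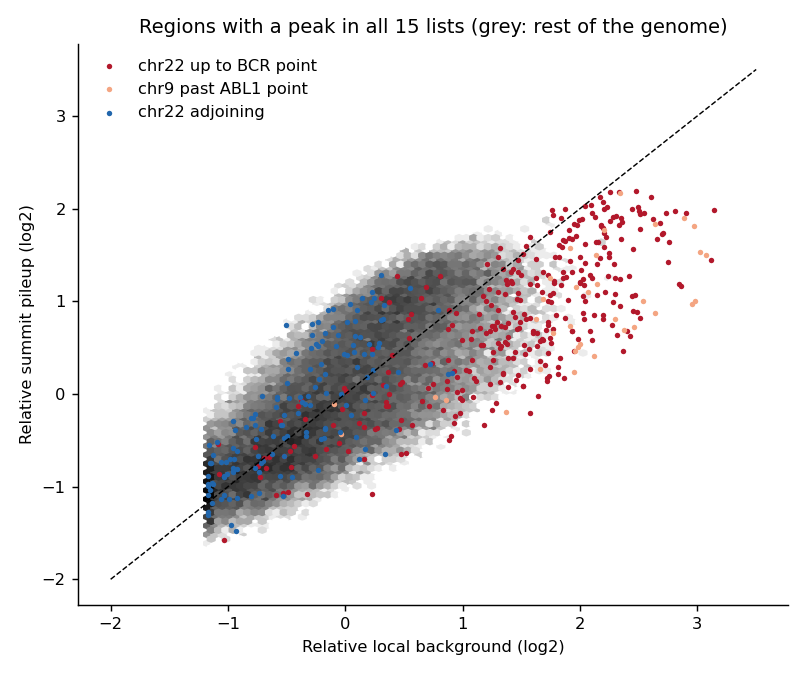
Relative summit pileup against relative local background (log2, means over 15 libraries) for regions with a peak in all 15 lists. Grey shading counts regions of the rest of the genome, red and orange points are regions up to the BCR point and past the ABL1 point, and blue points the adjoining chromosome 22. The dashed line marks equal values. Red and orange points lie to the right of the grey cloud and mostly below the line.

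Shared members on the high sides were weak by the authors' fold. The median fold was 5.87 ± 0.50 up to the BCR point and 4.17 ± 0.41 past the ABL1 point, against 9.61 ± 0.40 and 8.35 ± 0.65 in the adjoining stretches of chromosomes 22 and 9 and 8.55 ± 0.36 in the rest. When each list was cut to its 53098 strongest peaks by fold, the length of the shortest list, 46.4% of peaks up to the BCR point and 24.6% of those past the ABL1 point were kept on average. In the adjoining stretches 81.8% and 75.9% were kept. The median rank percentile in these lists, where 100 is the strongest peak and 0 no peak, was 25.6 ± 9.7 up to the BCR point and 0.775 ± 1.86 past the ABL1 point. The second of these was 0 in 12 of 15 libraries, and without dCas9 with Cr10 replicate 1, the shortest list and the highest library at 6.60, it averaged 0.359 ± 0.955. The percentile was 72.2 ± 2.28 and 60.5 ± 3.97 in the adjoining stretches. The 3 shared regions past the BCR point were weak too, with a fold of 5.50 ± 1.07 and a percentile of 20.1 ± 18.0. The 5 up to the ABL1 point were not, with 9.91 ± 0.97 and 73.8 ± 7.26. Weakness was thus not particular to the high sides.

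Peaks were dense on the high sides. Merged regions numbered 173 per Mb up to the BCR point and 273 per Mb past the ABL1 point, against 62.4 and 92.9 per Mb in the adjoining stretches. A library had 91.6 ± 18.7 peaks per Mb up to the BCR point and 135 ± 38.3 past the ABL1 point, against 39.2 ± 6.60 and 52.3 ± 10.0 in the adjoining stretches. The short sides across the points had 74.3 ± 25.4 (chromosome 22) and 88.7 ± 22.9 (chromosome 9). In the lists of equal length the order changed, with 39.7 up to the BCR point and 27.8 past the ABL1 point, against 31.4 and 38.3 in the adjoining stretches. The side up to the ABL1 point had 60.0 there, so the order on chromosome 9 turned round. The gene content of the stretches was not matched.

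Sharing between libraries was also described. A peak in all 15 lists was found at 28.4% of regions up to the BCR point and 21.3% past the ABL1 point, against 34.7% and 33.1% in the adjoining stretches and 32.2% in the rest. Regions seen in 1 library made up 22.8% and 23.2% of these sides, and 19.0% of the rest. Widths differed little, with a median of 351 bp and 358 bp on the high sides and 326 bp in the rest.

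**Figure D4:**
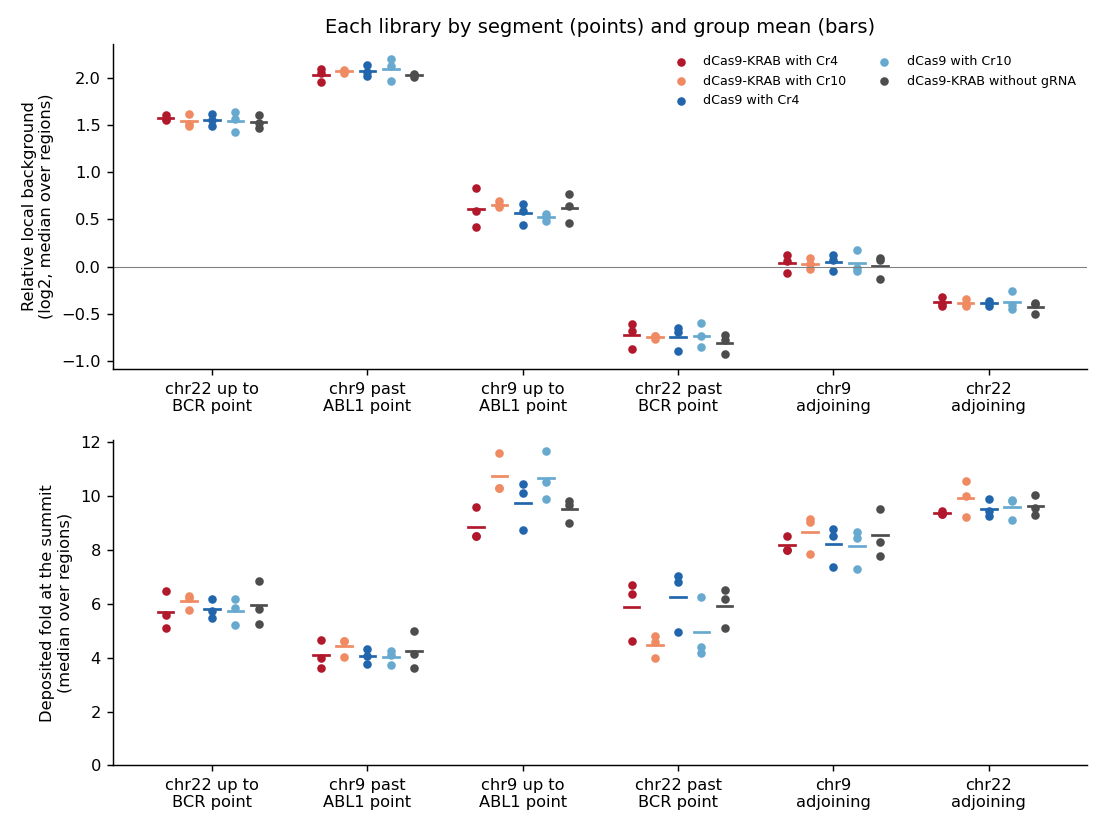
Median relative local background (log2, upper panel) and median authors' fold (lower panel) of each library over regions with a peak in all 15 lists, by segment and group. Points are libraries and short bars group means (n = 3). The 15 libraries of the 2 high segments lie between 1.43 and 2.21 in background, and no library of any other segment is above 0.834.

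The promoters of the 2 fusion genes showed both sides. The BCR promoter (chr22:23522274-23523625), in the part of BCR retained by the fusion, had the highest background of all shared members. Its local background was 73.2, 53.8 and 103 fragments in dCas9-KRAB with Cr4, 57.0, 65.8 and 59.7 in dCas9-KRAB with Cr10, 66.3, 65.4 and 85.0 in dCas9 with Cr4, 44.6, 78.2 and 101 in dCas9 with Cr10, and 62.0, 98.2 and 42.7 in dCas9-KRAB without gRNA. The groups overlapped fully, and the high and low libraries are those with a high and low background at typical regions. The summit had 238 to 349 fragments over the libraries, yet the fold was 4.32 ± 0.69 and the rank percentile 3.86 ± 6.94.

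ABL1 has 2 promoters, and the point lies between them. The exon 1b promoter (chr9:133587841-133588897), on the centromere side, had a local background of 6.62 to 18.5 fragments (median 11.5), a relative background of 0.62 ± 0.12 and a fold of 12.6 ± 0.86. The exon 1a promoter (chr9:133709826-133711624), 122 kb further on, had 19.2 to 52.1 fragments (median 29.3), a relative background of 1.997 ± 0.07 and a fold of 3.41 ± 0.39. Exon 1a was above exon 1b in background by 1.38 ± 0.12 in log2, in 15 of 15 libraries. In relative pileup exon 1a was below exon 1b, by −0.59 ± 0.19, also in 15 of 15 libraries. By rank in the lists of equal length the 2 stood far apart, with a mean percentile of 0.0634 for exon 1a and 89.4 for exon 1b. A percentile of 0 means that no peak was kept, so exon 1a was cut from most of these lists.

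Of the 40 gene entries with promoters up to the BCR point, all 40 had a peak in all 15 lists, in 35 distinct regions, and 35 entries had a relative background above 1. The list of genes was recalled, with their hg19 positions, and was not checked against an hg19 annotation. The 5 low entries were all among the 6 genes nearest the centromere. IL17RA, a cytokine receptor, had 0.30 ± 0.31, ATP6V1E1, a subunit of the proton pump, 0.44 ± 0.08, MICAL3, an actin regulator, 0.40 ± 0.15, PEX26, a peroxisome factor, 0.69 ± 0.06, and USP18, a protease for the interferon-induced modifier ISG15, −0.01 ± 0.15. BID, a pro-apoptotic member of the BCL2 family that lies among them, had 1.05 ± 0.13. From DGCR2 on, a gene of the DiGeorge syndrome region, every listed promoter was at 1.75 or above.

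Among the low entries, ATP6V1E1, IL17RA and PEX26 (12.3 ± 0.92) had a higher fold than every listed promoter with a background above 1. MICAL3 (8.89 ± 0.83) and USP18 (8.97 ± 1.15) did not, since CLTCL1, with a high background, had 9.41 ± 1.63. ATP6V1E1 had a fold of 15.7 ± 1.49 and a rank percentile of 97.5 ± 1.54, the highest of all members on chromosome 22, with IL17RA next at 95.1 ± 2.63. Yet their summits, 121 to 248 and 77 to 255 fragments, were lower than those of CRKL, with 266 to 343 fragments and a fold of 9.31 ± 1.34. DGCR8, a partner of Drosha in microRNA processing, had 208 to 350 fragments and a fold of 7.24 ± 0.93. PRAME, a tumour antigen, had a relative background of 2.81 ± 0.17 and a fold of 5.31 ± 0.54. Thus the order by fold was not the order by summit.

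Genes that share a promoter region cannot be told apart here. Among such pairs are HIRA and MRPL40, UFD1L and CDC45, TRMT2A and RANBP1, and PI4KA and SNAP29. HIRA, a histone chaperone, and MRPL40, a mitochondrial ribosomal protein, shared a region at 2.10 ± 0.11. UFD1L, a factor for degrading ubiquitinated proteins, and CDC45, a replication factor, shared one at 1.99 ± 0.12.

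Past the ABL1 point, all 7 listed promoters had a peak in all 15 lists and 6 were above 1. FIBCD1, a receptor for acetylated sugars, had 3.07 ± 0.13 with a fold of 3.20 ± 0.38. AIF1L, an actin-binding protein, had 2.97 ± 0.15 with a fold of 4.29 ± 0.80. LAMC3, a laminin chain, had 2.30 ± 0.09 with a fold of 3.35 ± 0.38. NUP214, a nuclear pore protein, had 2.34 ± 0.14 and the tallest summits of these 7, 298 to 375 fragments, with a fold of 8.47 ± 1.503. The 7th was PLPP7, beyond the distal drop. On the other side, EXOSC2, a subunit of the RNA exosome, had 0.64 ± 0.13 with a fold of 11.4 ± 1.04, and PRDM12, a developmental regulator, had a peak in 6 libraries.

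**Figure D5:**
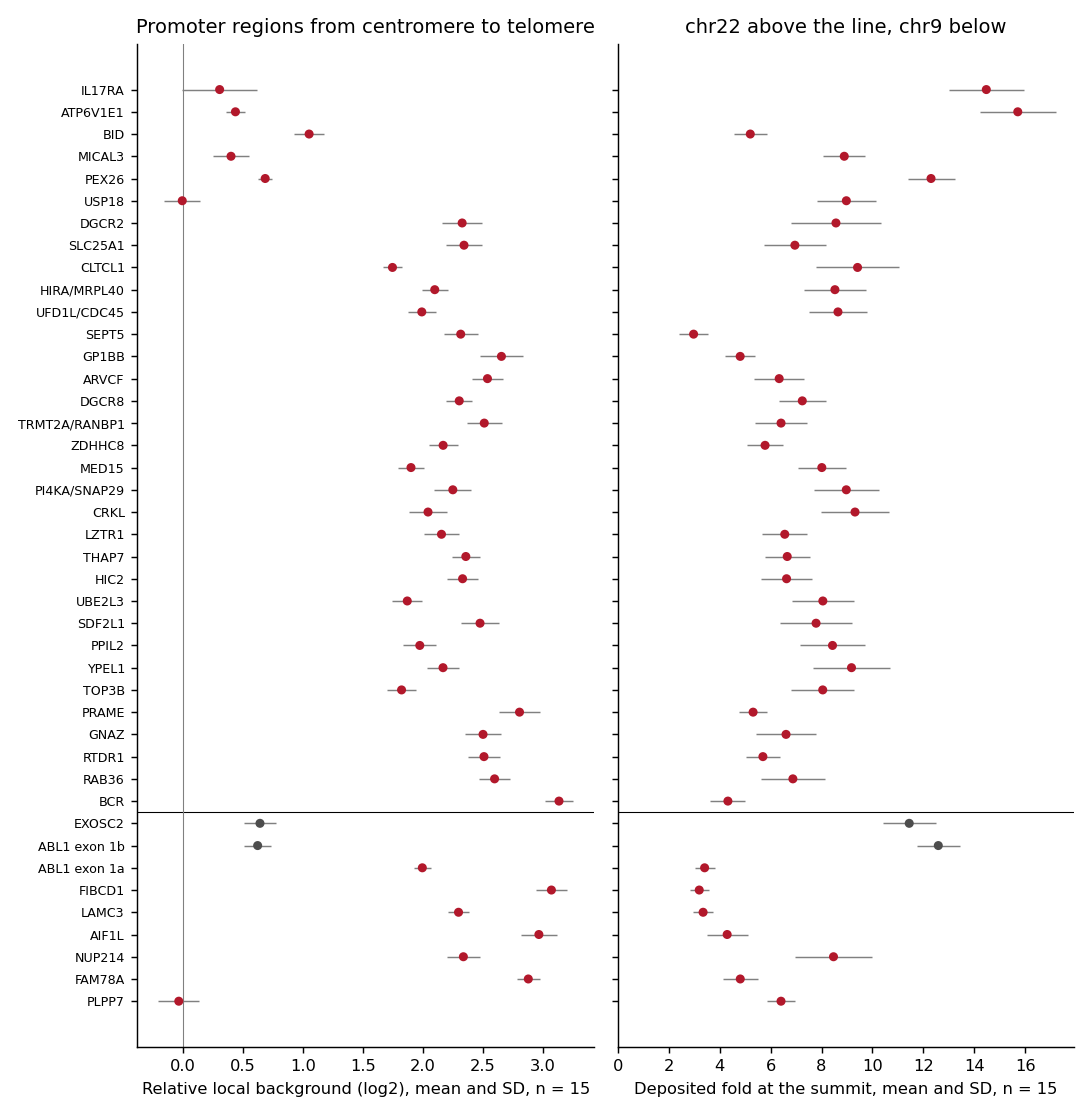
Relative local background (log2, left) and authors' fold at the summit (right) of promoter regions named by gene, each with a peak in all 15 lists, as mean and SD over 15 libraries, in order along each chromosome. Genes above the line are on chromosome 22 and those below on chromosome 9, and grey points are the 2 promoters up to the ABL1 point. Background climbs between USP18 and DGCR2 and between ABL1 exon 1b and exon 1a, and falls between FAM78A and PLPP7.

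Between the groups no difference of a member passed a test. Up to the BCR point, the median relative background was 1.55, 1.57 and 1.61 in dCas9-KRAB with Cr4, 1.49, 1.52 and 1.62 in dCas9-KRAB with Cr10, 1.49, 1.56 and 1.62 in dCas9 with Cr4, 1.43, 1.57 and 1.64 in dCas9 with Cr10, and 1.47, 1.53 and 1.61 in dCas9-KRAB without gRNA, each from low to high. Past the ABL1 point the group means were 2.04 ± 0.07, 2.07 ± 0.02, 2.08 ± 0.06, 2.10 ± 0.12 and 2.03 ± 0.02 in the same order (SD, n = 3 each). Up to the BCR point all 5 groups overlapped. Past the ABL1 point dCas9-KRAB with Cr10 (2.05 to 2.09) lay above dCas9-KRAB without gRNA (2.01 to 2.05) without overlap, by 0.04 in the means, and each of the other 3 groups overlapped both. The excess over the adjoining chromosome 22 had group means of 1.96, 1.93, 1.95, 1.92 and 1.97, and that over the adjoining chromosome 9 of 1.999, 2.04, 2.03, 2.06 and 2.02. In relative pileup past the ABL1 point, dCas9-KRAB without gRNA (0.77 to 0.81) overlapped only dCas9 with Cr10 (0.75 to 1.0). It lay below dCas9-KRAB with Cr4 (0.82 to 0.99), dCas9-KRAB with Cr10 (0.89 to 1.0) and dCas9 with Cr4 (0.86 to 0.93). Up to the BCR point all 5 groups overlapped in relative pileup. These segment values were not tested.

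Single members were tested with limma in fits over all regions of the genome, for 8 comparisons and 3 measures. The comparisons were each gRNA group against dCas9-KRAB without gRNA, dCas9-KRAB against dCas9 under the same gRNA, the 2 gRNAs under dCas9-KRAB (Cr4 over Cr10), and the 6 dCas9-KRAB libraries with a gRNA pooled against the other 9. The first 4 share the dCas9-KRAB libraries without gRNA, so they are not independent. At an adjusted p under 0.05 limma called 0 members in each of the 24 fits, and 0.0% of all regions. By rank 335 members were tested among 62858 regions, and by pileup and by background 374 among 38888.

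At an unadjusted p under 0.05, the members' counts by rank were 2 for dCas9-KRAB with Cr4 (2.43% of all regions), 3 for dCas9-KRAB with Cr10 (2.81%), 0 for dCas9 with Cr4 (1.39%) and 1 for dCas9 with Cr10 (2.97%), each against dCas9-KRAB without gRNA. They were 1 for dCas9-KRAB against dCas9 with Cr4 (1.25%), 5 for the same with Cr10 (2.5%), 5 for dCas9-KRAB with Cr4 against that with Cr10 (2.65%) and 2 in the pooled comparison (1.72%). By pileup the counts in the same order were 3 (0.723%), 1 (0.841%), 0 (0.311%), 2 (1.09%), 1 (0.213%), 2 (1.3%), 2 (0.717%) and 3 (0.774%). By background they were 0 (0.121%), 0 (0.162%), 0 (0.0231%), 1 (0.345%), 0 (0.0206%), 0 (0.309%), 0 (0.118%) and 0 (0.149%). Out of 335 members, the counts by rank are shares below those of all regions in all 8 comparisons. Out of 374, the shares by pileup are above those of all regions in 3 comparisons and below in 5, and by background below in all 8. These differences in share were not tested.

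At the BCR promoter, the fitted differences in relative background ran from −0.04 to 0.11 over the 8 comparisons, with an SE of 0.18, or 0.12 when pooled. In relative pileup they ran from −0.12 to 0.11, with an SE of 0.21, or 0.13 when pooled. At the ABL1 exon 1a promoter the background differed by −0.05 to 0.05 (SE 0.11, pooled 0.07), and at exon 1b by −0.06 to 0.07 (SE 0.11, pooled 0.07). All limma adjusted p-values at these 3 promoters were 1.00. Over all 374 members and 8 comparisons, no fitted difference in background was outside −0.25 to 0.31, and none in pileup outside −0.41 to 0.49. The steps along the chromosomes, 2.63 and 2.92, are larger numbers but of another kind. They compare different places and were picked for their size, while these ranges compare groups at the same region.

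Some members had the lowest p in more than 1 comparison. In pileup chr22:22396350-22396701 was lowest in 3 comparisons with dCas9-KRAB without gRNA. It had 0.06 ± 0.19 in dCas9-KRAB with Cr4, 0.06 ± 0.24 in dCas9-KRAB with Cr10 and 0.10 ± 0.30 in dCas9 with Cr10, against 0.45 ± 0.23 in dCas9-KRAB without gRNA, which these comparisons share. The differences were −0.39, −0.40 and −0.36 (SE 0.16 each, limma adjusted p = 1.00 each). In the pooled comparison the lowest was chr9:133661394-133661867, inside ABL1, with 0.38 ± 0.03 in the 6 dCas9-KRAB libraries with a gRNA and 0.19 ± 0.15 in the other 9. That difference was 0.19 (SE 0.08, limma adjusted p = 1.00).

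Presence of peaks was compared as well. Fisher's exact test of the 6 dCas9-KRAB libraries with a gRNA against the other 9 called 0 of 474 members with a peak in 3 to 12 libraries (0.0% of 39037 regions), and 4 at an unadjusted p under 0.05 (1.2% of regions). Members with a peak in all 3 libraries of 1 group and none of the other numbered 2 of 1153 for dCas9-KRAB with Cr4 (0.181% of all regions), 1 of 1044 for dCas9-KRAB with Cr10 (0.343%), 0 of 1099 for dCas9 with Cr4 (0.0564%) and 1 of 1156 for dCas9 with Cr10 (0.0901%), each against dCas9-KRAB without gRNA. They numbered 4 of 1144 for dCas9-KRAB against dCas9 with Cr4 (0.184%), 0 of 1065 for the same with Cr10 (0.191%) and 6 of 1074 for dCas9-KRAB with Cr4 against that with Cr10 (0.409%). With 3 libraries a group, an exact test of presence cannot go below p = 0.1. With 6 against 9 the lowest p is also limited. A region that separated them fully could not pass adjustment over 39037 regions unless many others did so too. The 0 calls by Fisher's test therefore say little about presence.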

How the data were processed

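Nuclei of K562 cells were digested and the fragments sequenced, per the labels' protocols. The authors deposited 15 peak lists in narrowPeak layout on hg19. CASAVA 1.3, BWA and bedtools are named in the submitters' processing notes. The peak caller and its threshold were not given in the sources used here. The deposited fold column is a ratio, summit over local background. The authors gave each p-value and each q-value on a −log10 scale. The deposited score column and summit offset were not tested. The labels record no scaling of one library to another.

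A whole summit pileup k and a local background λ were solved per peak from fold = (k + 1)/(λ + 1) and the Poisson p-value of k given λ. This held within 0.01 in −log10 p for all peaks. Regions with a peak in all 15 lists were settled as the set for medians after both sets had been looked at. Members, gene lists and thresholds were chosen with earlier results of these data known. Limma 3.58.1 (R 4.3.3) fitted all 15 libraries in 5 groups with a mean-variance trend and Benjamini-Hochberg adjustment over all regions, two-sided, at 0.05; it was tested on simulated data. Ranks used regions with a peak in at least 3 libraries. Promoter regions lay within 1 kb of recalled hg19 starts, matched by symbol to RefSeq (49 of 49 genes; 44 of 47 neighbouring pairs in the same order). Named were these promoters, the 3 members nearest each point on each side, the 5 highest-ranked members of each window and the lowest p of each fit. Some loci among them are not reported here. Steps were added after the values were seen. Alternatives covered list length, filters, overlap, summaries, points, comparison stretches and leaving out each library. Python 3.11.15, numpy 2.4.6, pandas 2.3.3 and scipy 1.17.1 were used.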

Additional observations from a re-analysis of the deposited data

How the results depend on the processing

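Among limits, total depth is unknown, so counts of fragments compare libraries only after centring. The local background comes from the peak caller's own windows, which a broad promoter peak can raise. The sides past the BCR point and up to the ABL1 point hold 3 and 5 shared regions. Gene positions on hg19 were recalled, and no sequence of the peak regions was read because no hg19 genome was used here.

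No reported difference changed sign and no member was called under any alternative run, apart from the order of peak density in lists of equal length. There the side past the ABL1 point went from the densest of these segments to the least dense, and the side up to it became the densest. The side past the BCR point, above both adjoining stretches in the deposited lists, fell below them. The background difference across the BCR point was 1.68 with all peaks of each library, 1.37 as a mean over regions, 1.009 with points moved 20 kb up and 2.43 with points moved 20 kb past; with points moved up the pileup difference was 0.46. These settings change which of the few regions count as past the point. Against the adjoining chromosome 22 the background excess was 1.81 as a mean and 1.85 with a stretch of 0.5 times the length, and the pileup excess 0.91 with all peaks and 0.84 with that stretch. Against the rest of the genome it was 1.41 as a mean (chromosome 22) and 2.30 with all peaks (chromosome 9). Across the ABL1 point the background difference was 1.65 as a mean. Against the adjoining chromosome 9 it was 2.14 with all peaks, 1.77 with stretches of double length and 1.90 of 0.5 times the length, with pileup excesses of 0.67 and 0.70 at these lengths. In the deposited lists the rank percentile was 44.2 up to the BCR point and 15.9 past the ABL1 point, against 78.6 and 69.6 in the adjoining stretches of chromosomes 22 and 9 and 71.5 in the rest, which had 60.4 in lists of 50000 peaks. In lists of equal length, peaks per Mb were 39.7 up to the BCR point, 30.5 past it, 27.8 past the ABL1 point and 60.0 up to it, against 31.4 and 38.3 in the adjoining stretches. The causes of these moves were not otherwise tested.

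Leaving out 1 library at a time, the background difference stayed between 2.30 and 2.31 across the BCR point and between 1.45 and 1.49 across the ABL1 point, and limma and Fisher's test called 0 members each time. With the replicate number as a block, limma also called 0 members in each of the 24 fits, and the pileup fits called 1 region of the genome in 3 comparisons. For pairing, same-numbered libraries of different groups correlated with a mean r of 0.195 (−0.28 to 0.65, 19 of 30 above 0.1), against −0.09 for other numbers (16 of 60 above 0.1), and 0 libraries correlated best with their own number throughout. Up to the BCR point replicate 1 was above replicate 3 in background in 5 of 5 groups, by 0.04 to 0.14; past the ABL1 point in 3 of 5. This is a hint that libraries of one number may share something; not every pair exceeds 0.1 and the labels name no shared batch, so the block was not used.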
